A study of Homo sapiens with 3 samples.

Results

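The transcripts of 30 genes of cholesterol and fatty acid synthesis were followed in cells labelled HGC-27, a human gastric cancer cell line, carrying a short hairpin RNA against USP16 or a control hairpin. USP16 is a deubiquitinase best known for acting on histone H2A. The 30 genes are enzymes of the 2 pathways with their sterol-sensing regulators, chosen by symbol, and all 30 were found among the 58735 genes of the deposited table. RNA-seq gave 1 library labelled shControl, with the genotype given as WT, and 2 libraries labelled shUSP16-1 and shUSP16-2. All 3 were grown in serum-containing medium, and a protocol with dexamethasone, isobutylmethylxanthine and insulin is recorded for all of them; whether these cells received it is unclear from the labels. Whether the suffixes stand for separate hairpins or for repeats, whether the cells were 1 clone and whether cultures were separate is not recorded, so p-values reflect library-to-library spread that may be technical.

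Cholesterol is made from acetyl-CoA through mevalonate, isoprenoid diphosphates, squalene and lanosterol, and fatty acids from acetyl-CoA through malonyl-CoA. When membrane sterol is low, the chaperone SCAP carries the SREBP transcription factors, encoded by SREBF1 and SREBF2, from the endoplasmic reticulum to the Golgi for cleavage, and INSIG proteins hold them back when sterol is plentiful. Cleaved SREBP2 acts mainly on sterol genes and SREBP1 mainly on fatty acid genes, commonly together with NF-Y, which binds CCAAT boxes.

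The regulatory sequence in front of these genes was read from RefSeq promoters (GRCh38.p14, 250 bases before to 50 after each start), of which 35 windows matched 26 of the 30 genes by symbol. SQLE, FDFT1, FASN and ACAT2 had no matched window and were not searched. Both strands were searched for a sterol regulatory element core (TCACNCCAC), the NF-Y box CCAAT, the GC box GGGCGG and the E-box CACGTG, and 0 matches of different motifs overlapped in these windows. The 4 windows below are shown because they include the only match to the sterol element core among the windows searched (SREBF2). They also include a classical SREBP2 target that was higher in both shUSP16 libraries (HMGCS1) and the pair of sterol-handling genes that were lower in both (INSIG1 and STARD4). Capitals mark TCACNCCAC or CCAAT on either strand, the latter read as ATTGG on the other strand. The windows lie at chr22:41832855-41833154 (plus strand), chr5:43313363-43313662 (minus), chr7:155297628-155297927 (plus) and chr5:111512486-111512785 (minus).
SREBF2: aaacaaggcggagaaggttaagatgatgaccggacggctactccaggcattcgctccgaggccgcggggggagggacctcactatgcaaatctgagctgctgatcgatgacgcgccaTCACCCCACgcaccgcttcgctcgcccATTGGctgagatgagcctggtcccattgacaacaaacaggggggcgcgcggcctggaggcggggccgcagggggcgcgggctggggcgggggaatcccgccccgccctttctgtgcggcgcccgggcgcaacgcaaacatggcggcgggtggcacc
HMGCS1: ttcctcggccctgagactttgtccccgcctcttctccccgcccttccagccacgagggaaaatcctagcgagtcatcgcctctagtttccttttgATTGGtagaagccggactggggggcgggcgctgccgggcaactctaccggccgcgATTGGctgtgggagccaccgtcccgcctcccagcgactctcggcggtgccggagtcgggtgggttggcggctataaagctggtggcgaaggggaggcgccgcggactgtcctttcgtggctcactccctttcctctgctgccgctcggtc
INSIG1: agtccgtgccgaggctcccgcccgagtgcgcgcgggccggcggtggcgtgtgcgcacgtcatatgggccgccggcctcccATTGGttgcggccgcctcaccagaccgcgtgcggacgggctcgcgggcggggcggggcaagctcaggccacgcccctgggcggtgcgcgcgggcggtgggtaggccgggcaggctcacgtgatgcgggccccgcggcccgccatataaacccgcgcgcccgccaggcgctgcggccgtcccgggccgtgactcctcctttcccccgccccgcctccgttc
STARD4: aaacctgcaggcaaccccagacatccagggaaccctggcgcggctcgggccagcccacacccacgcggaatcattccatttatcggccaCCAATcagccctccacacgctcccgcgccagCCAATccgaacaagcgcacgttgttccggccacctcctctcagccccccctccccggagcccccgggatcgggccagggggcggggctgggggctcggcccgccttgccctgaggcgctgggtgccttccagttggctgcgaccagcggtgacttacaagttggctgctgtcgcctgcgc
The sterol element core stood at position -133 from the SREBF2 start and in 1.39% of 27305 genes with a promoter window. CCAAT was in a window of 20 of the 26 matched members, against 39.7% of those 27305 genes, and GGGCGG in 25 of 26, against 48.3%. CACGTG was in 4 of 26 (INSIG1, LSS, SC5D and SCAP), against 8.77%. CCAAT was in 8 of the 11 matched members whose lowest library was shControl and in 11 of the other 13 tested. SQLE, FDFT1, FASN and ACAT2, which were not searched, all had shControl lowest. The missing windows thus fall on one side, and these counts do not show whether CCAAT goes with direction. The motif matches describe letters in a window and show neither binding nor its absence.

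Reads recovered from the deposited FPKM (fragments per kilobase of gene length, scaled to library size) summed to 29530581 to 31187845 per library. The scaling in the authors' FPKM corresponds to totals of 1.08 times that sum in shControl and 1.01 and 0.994 times it in the others, so both scalings are given below. USP16 itself was at 6.28 FPKM in shControl, 4.29 in shUSP16-1 and 5.98 in shUSP16-2, at ratios to shControl of 0.683 and 0.952. On that scale the exact binomial interval of counting error was 0.621 to 0.749 in shUSP16-1 and 0.875 to 1.04 in shUSP16-2. The latter includes 1, so the targeted transcript was not lower beyond counting error in shUSP16-2. With equal sums of reads the ratios were 0.639 (0.582 to 0.702) in shUSP16-1 and 0.876 (0.805 to 0.953) in shUSP16-2. Whether USP16 was lowered in shUSP16-2 thus depends on the scaling. Mitochondrial reads made up 13.2% of reads in shControl and 11.8% and 11.3% in the libraries labelled shUSP16; the part of this in the results below was not tested. Of 8 gastric epithelial markers, 1 reached 1 FPKM in shControl and 0 in the others, with KRT19, TFF1 and MUC5AC at 0 reads throughout and KRT8 at no more than 0.121 FPKM. Of 5 mesenchymal markers, 4 passed 1 FPKM in every library, and the list summed to 249.3 FPKM in shControl, 261 in shUSP16-1 and 309 in shUSP16-2. They were the filament gene VIM at 155 to 180 FPKM and the matrix genes COL1A1 at 52.2 to 78.4, LUM at 22.9 to 38.3 and DCN at 8.71 to 12.2 FPKM, while CDH2 stayed at or under 0.0621 FPKM. The markers thus go against a gastric epithelial identity, and the part of the mesenchymal levels in the results below was not tested. Immune markers summed to at most 0.426 FPKM. Among 9 adipocyte markers, which bear on the recorded hormone protocol, CEBPA alone reached 1 FPKM, the sum was 3.26 to 4.55 FPKM, and ADIPOQ and LEP had 0 reads in every library.

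The members covered a wide range of levels. SCD, the desaturase that makes oleate from stearate, was the highest at 522 FPKM in shControl, 578 in shUSP16-1 and 505 in shUSP16-2, and it held 37.3% to 41% of all reads of the 30 genes. SQLE, SREBF1, FASN and ACLY came next, between 56.6 and 149 FPKM over the libraries. At the other end, FADS2 and CYP51A1 had means under 1 FPKM and were not tested, which left 28 members.

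**Figure D1:**
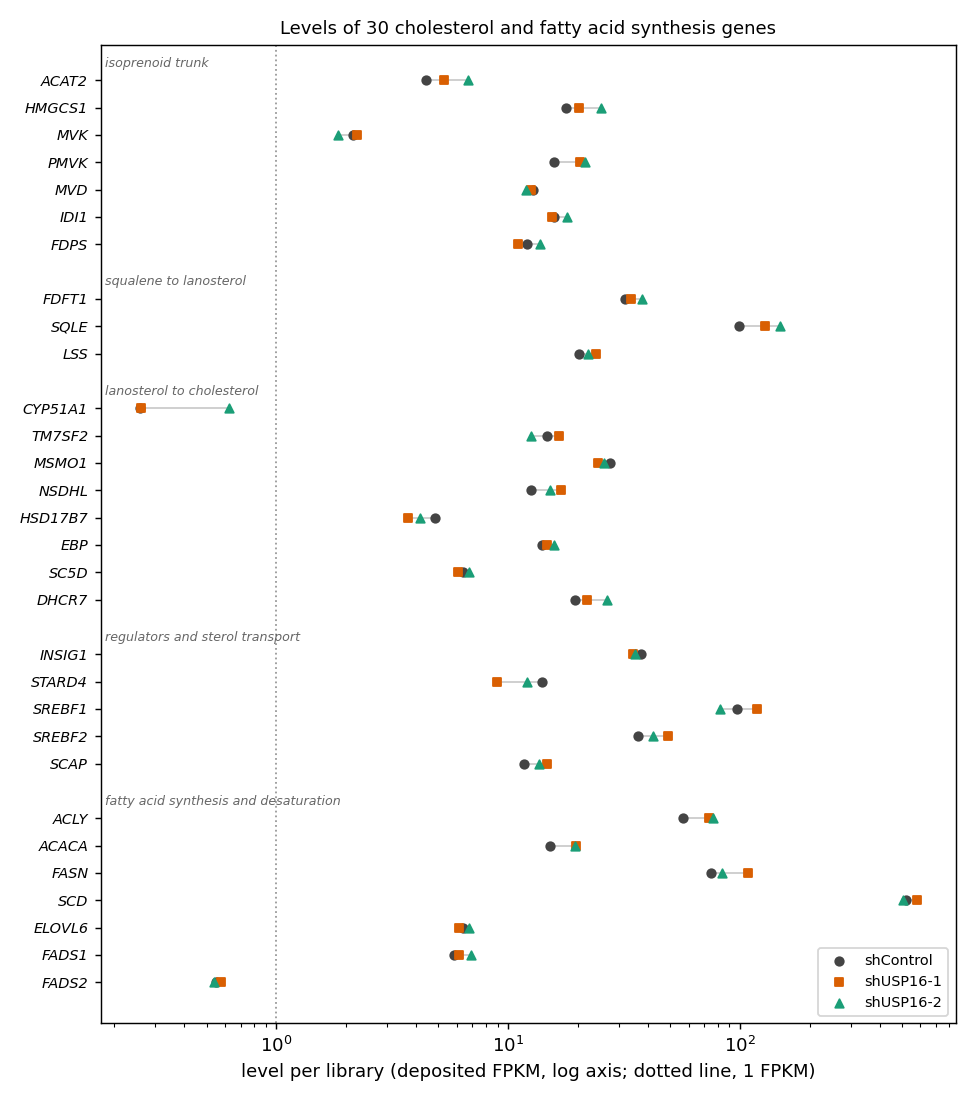
Level of each of the 30 genes in each of the 3 libraries, in deposited FPKM on a log axis, grouped by role; circles are shControl, squares shUSP16-1 and triangles shUSP16-2. SCD stands highest in each library, at 505 to 578 FPKM, CYP51A1 and FADS2 lie under 1 FPKM, and differences between libraries are small beside those between genes.

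The libraries labelled shUSP16 were compared with shControl to ask which of these genes differ when USP16 is targeted. Several enzymes that feed and carry sterol and fatty acid synthesis had higher values in both libraries labelled shUSP16, among them SQLE, ACLY, PMVK and ACACA, which were at least 25% higher in each. STARD4, HSD17B7, MSMO1, INSIG1 and MVD had lower values in both, and none of these differences passed in limma. limma on log2(FPKM + 1), adjusted over the 13852 genes tested by the Benjamini-Hochberg method, called 0 of 28 members, with a background of 0% of all genes called; SQLE, ACLY, PMVK and ACACA had an unadjusted p under 0.05, 4 of 28, as did 2008 of all genes. limma restricted to the 11069 protein-coding genes called 0 members, where 0.434% of those genes were called. limma voom on the recovered reads called 0 members with the authors' totals, where 2.51% of all genes were called, and 1, STARD4, with sums of reads, where 4.02% were. With 1 control library every difference is a difference from that library, and fewer cells in a state and less RNA per cell cannot be told apart in bulk RNA.

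shControl was the lowest of the 3 libraries for 15 of 28 members, where 44.9% of all genes tested and 50.2% of the protein-coding ones were placed so. It was the highest for 5, where 32.4% of all genes and 28.2% of protein-coding genes were, and it lay between the others for 8. With libraries scaled to equal sums of reads, 11 members had shControl lowest (31.3% of all genes) and 8 had it highest (45.4%). At least 25% higher in each shUSP16 library were 4 members, SQLE, ACLY, ACACA and PMVK, where 9.55% of all genes were; with equal sums of reads the count was 0 (5.02% of all genes). At least 20% lower in each were 0 members (10.2% of all genes), and 2 with equal sums of reads (14.8%). The median log2 difference of the 28 members was 0.15 in shUSP16-1 and 0.17 in shUSP16-2, beside 0.041 and 0.043 over all genes tested and 0.063 and 0.070 over protein-coding ones. Both differences share the control library. The count of members with shControl lowest was close to the background.

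**Figure D2:**
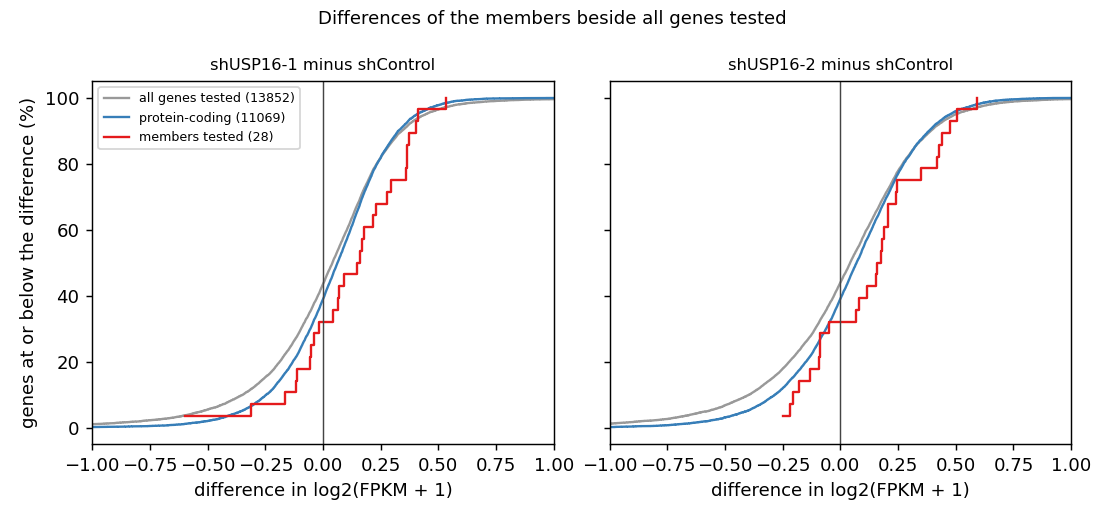
Percent of genes at or below each difference in log2(FPKM + 1), for shUSP16-1 (left) and shUSP16-2 (right) against shControl; grey is all 13852 genes tested, blue the 11069 protein-coding genes and red the 28 members tested. The red curve runs mostly to the right of the others, with member medians of 0.15 and 0.17.

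In the isoprenoid trunk, which leads from acetyl-CoA to farnesyl diphosphate, 3 of 7 genes had shControl lowest and 1 had it highest, beside the 44.9% and 32.4% of all genes given above. PMVK (ENSG00000163344, chromosome 1, 154924734 to 154936991, minus strand, GRCh38) encodes phosphomevalonate kinase. It was at 15.7 FPKM in shControl, 20.4 in shUSP16-1 and 21.4 in shUSP16-2. Both shUSP16 libraries lay close to each other and above the control, with a log2 difference of 0.39 (SE 0.12, limma adjusted p = 0.296). HMGCS1, which makes HMG-CoA, was at 17.7, 20.2 and 25.0 FPKM in the same order, and the gap between the shUSP16 libraries was wider than that between shUSP16-1 and the control. ACAT2, the cytosolic thiolase that starts the route, was at 4.42, 5.30 and 6.70 FPKM. Exons of ACAT2 share 52.3% of their bases with genes of the opposite strand. SOD2 shares 26.5% and SOD2-OT1 33.9%, and each was listed with at most 2 reads per library. TCP1, a chaperonin gene with 5356, 6251 and 7554 reads, shares 9.23% and was also higher in both shUSP16 libraries. Without a stated strand setting, reads in shared bases cannot be assigned, so the counts listed for these genes and for ACAT2 are uncertain.

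The other 4 genes of the trunk differed less in the mean than PMVK, HMGCS1 and ACAT2. MVD, the decarboxylase that yields isopentenyl diphosphate, was at 12.8, 12.5 and 11.98 FPKM, with shControl slightly highest. Its ratio in shUSP16-1 was 0.972, with an interval of 0.911 to 1.04 that includes 1. With equal sums of reads that ratio was 0.911 (0.853 to 0.972). MVK, mevalonate kinase, was low at 2.13, 2.22 and 1.85 FPKM. IDI1, the isomerase of isopentenyl diphosphate, was at 15.7, 15.5 and 17.9 FPKM, and FDPS, farnesyl diphosphate synthase, at 12.005, 10.98 and 13.7 FPKM. For IDI1, FDPS and MVK the control lay between the shUSP16 libraries, so no direction was shared. The log2 differences of IDI1 and FDPS, at 0.081 and 0.030, turned negative with equal sums of reads.

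All 3 genes from squalene to lanosterol were higher than shControl in both shUSP16 libraries on the deposited scale, as were 44.9% of all genes and 50.2% of protein-coding ones. With equal sums of reads 1 of the 3 was, beside 31.3% of all genes. SQLE (ENSG00000104549, chromosome 8, 124998497 to 125022283, plus strand) encodes squalene epoxidase, a flux-controlling oxygenase of the pathway. Its level was 98.6 FPKM in shControl, 128 in shUSP16-1 and 149 in shUSP16-2. These rest on 13815, 16467 and 19871 reads, and both shUSP16 libraries exceeded the control by more than counting error. Relative to shControl, shUSP16-1 stood at 1.30 with an exact binomial 95% interval of 1.27 to 1.33, and shUSP16-2 at 1.51 (1.48 to 1.54). Intervals here and below cover counting error only. With equal sums of reads the ratios were 1.22 and 1.39. SQLE had the largest log2 difference of the 28 members tested, 0.48 (SE 0.13), above 96.3% of all genes tested, and did not pass in limma (adjusted p = 0.292) or in limma voom with the authors' totals (adjusted p = 0.0531).

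Its neighbours in the pathway differed by less. FDFT1, squalene synthase, was at 31.9, 34.0 and 37.9 FPKM, and LSS, which cyclises the epoxide to lanosterol, at 20.3, 24.0 and 22.1 FPKM. FDFT1 was highest in shUSP16-2 and LSS in shUSP16-1, so the libraries did not rank alike. With equal sums of reads FDFT1 in shUSP16-1 and LSS in shUSP16-2 no longer differed beyond counting error, with ratios of 0.998 (0.961 to 1.04) and 1.00 (0.961 to 1.04).

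From lanosterol to cholesterol, 3 of 7 tested genes had shControl lowest and 2 had it highest, again beside 44.9% and 32.4% of all genes. DHCR7, the final reductase of the Kandutsch-Russell branch, was at 19.4 FPKM in shControl, 21.9 in shUSP16-1 and 26.6 in shUSP16-2. NSDHL, a decarboxylating sterol dehydrogenase, was at 12.5, 16.9 and 15.1 FPKM. Both stayed above shControl with equal sums of reads, at ratios of 1.06 and 1.26 for DHCR7 and 1.26 and 1.11 for NSDHL. EBP, a sterol isomerase, was at 14.0, 14.7 and 15.7 FPKM, and its ratio in shUSP16-1 had an interval of 0.963 to 1.14 that includes 1. In limma DHCR7 had an adjusted p = 0.422 and NSDHL an adjusted p = 0.353.

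Other enzymes of the same stretch were lower in both shUSP16 libraries. MSMO1, the monooxygenase that acts on the methyl groups of lanosterol products, was at 27.5, 24.4 and 25.8 FPKM. HSD17B7, a sterol ketoreductase, was at 4.82, 3.68 and 4.15 FPKM. HSD17B7 has a transcribed pseudogene, HSD17B7P2, at 6.996, 3.42 and 4.99 FPKM, and how reads were divided between them is uncertain. Summed over HSD17B7 and its 2 pseudogenes, the ratio to shControl was 0.678 in shUSP16-1 (0.615 to 0.747) and 0.814 in shUSP16-2 (0.743 to 0.891). TM7SF2, a sterol reductase, was at 14.8, 16.6 and 12.5 FPKM, with the control between the others. SC5D, a sterol desaturase, was at 6.36, 6.08 and 6.78 FPKM. With equal sums of reads SC5D lay below the control in both, at ratios of 0.895 (0.821 to 0.974) and 0.980 (0.903 to 1.06).

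CYP51A1, the demethylase that acts directly on lanosterol, was listed at only 0.257, 0.261 and 0.621 FPKM, from 30, 28 and 69 reads. That is far under LSS before it and MSMO1 after it, and the gene was left out of the test by its low level. CYP51A1 (ENSG00000001630, chromosome 7, 92112151 to 92134803, minus strand) shares 83.2% of its 3584 exonic bases with other annotated genes. A readthrough gene on its own strand, AC000120.2, holds 79.4% of them and was listed with 0, 0 and 6 reads. Over the 602 bases that no other gene shares, the CYP51A1 reads would come to 1.53, 1.56 and 3.70 FPKM if all of them lay there. Among protein-coding genes with at least 75% of their exonic bases in another gene of the same strand, 0.616% of 649 had a mean of at least 1 FPKM. The share was 8.77% of 57 genes that reached this limit on the opposite strand only, and 57.5% of 19245 under it on both. The limit was chosen after these values were seen, and why the shares differ was not tested. The sources used here do not state how reads in shared bases were counted, so the listed values of CYP51A1 are uncertain as a level. Its reads were more in shUSP16-2 than in the other libraries, with a ratio of 2.41 (1.55 to 3.84) there and 1.02 (0.585 to 1.76) in shUSP16-1.

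**Figure D3:**
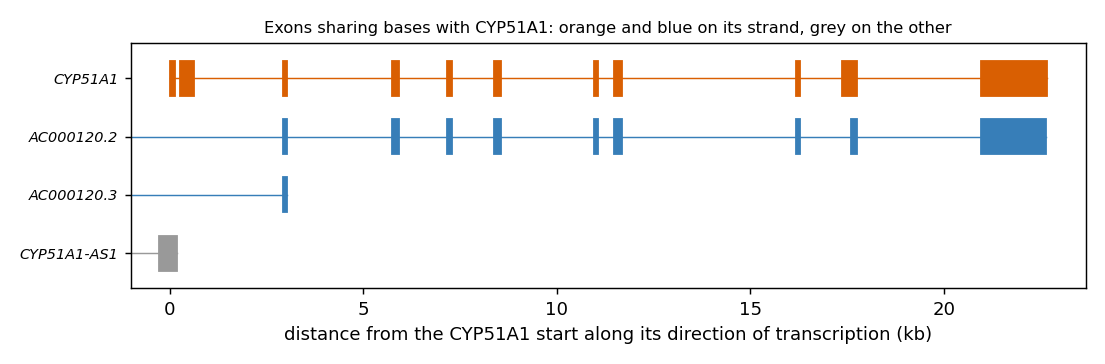
Exons of CYP51A1 (orange) and of the genes that share exonic bases with it, by distance in kb from the CYP51A1 start along its direction of transcription; blue genes lie on its strand and the grey gene on the other, and lines running off the left edge continue. AC000120.2 repeats most CYP51A1 exons, sharing 79.4% of the exonic bases.

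The regulators stood on both sides of the control. SREBF2 (ENSG00000198911, chromosome 22, 41833079 to 41907308, plus strand) had 36.4 FPKM in shControl, 48.8 in shUSP16-1 and 42.2 in shUSP16-2, and SCAP had 11.7, 14.6 and 13.5 FPKM. Both had shControl lowest under either scaling, with log2 differences of 0.31 (SE 0.14, limma adjusted p = 0.376) and 0.24 (SE 0.13, limma adjusted p = 0.424). SREBF1 (ENSG00000072310, chromosome 17, 17810399 to 17837002, minus strand) was at 97.3, 118 and 81.8 FPKM. It was thus higher than the control in shUSP16-1, at a ratio of 1.21 (1.19 to 1.23), and lower in shUSP16-2, at 0.841 (0.825 to 0.856). This was the widest gap between the shUSP16 libraries among the 28 members, 0.52 on the log2 scale, around a mean difference of 0.015. SREBF1 exceeded SREBF2 by a factor of 2.67 in shControl, 2.42 in shUSP16-1 and 1.94 in shUSP16-2.

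INSIG1, which retains SCAP in the endoplasmic reticulum and is itself a classical SREBP target, was at 37.5, 34.6 and 35.2 FPKM. The shUSP16 libraries lay close together just under the control, with ratios of 0.922 (0.883 to 0.963) and 0.938 (0.899 to 0.979). STARD4 (ENSG00000164211, chromosome 5, 111496033 to 111512590, minus strand), a cytosolic carrier of cholesterol, was at 14.0 FPKM in shControl, 8.93 in shUSP16-1 and 12.02 in shUSP16-2. It had the most negative log2 difference of the 28 members tested, -0.40 (SE 0.19, limma adjusted p = 0.399). It passed in limma voom with sums of reads (adjusted p = 0.0402, log2 difference -0.54) but not with the authors' totals (adjusted p = 0.142); over the 11 fits its adjusted p ran from 0.0402 to 0.604. Most of the difference came from shUSP16-1, at a ratio of 0.637 (0.598 to 0.679), against 0.857 (0.809 to 0.908) in shUSP16-2. The antisense gene STARD4-AS1, which shares 2.18% of the STARD4 exonic bases, had 637, 383 and 367 reads; without a stated strand setting the pair cannot be fully told apart. Of the 2 motifs in capitals, the windows shown for STARD4 and INSIG1 held CCAAT alone. So did the window shown for HMGCS1, which was higher in both shUSP16 libraries, while another HMGCS1 window held neither motif. These windows were chosen with the directions known, so they do not show whether CCAAT goes with direction. The sterol element core was in 1 of the 26 matched members, SREBF2.

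In fatty acid synthesis, ACLY, ACACA and FASN, which lead from citrate to palmitate, were higher in both shUSP16 libraries with deposited values and with equal sums of reads. SCD and ELOVL6 had a shUSP16 library on each side of the control with deposited values, and with equal sums of reads ELOVL6 lay below the control in both. ACLY (ENSG00000131473, chromosome 17, 41866908 to 41930542, minus strand), which makes cytosolic acetyl-CoA from citrate for both pathways, was at 56.6 FPKM in shControl, 73.2 in shUSP16-1 and 76.1 in shUSP16-2. ACACA (ENSG00000278540, chromosome 17, 37084988 to 37406818, minus strand), the carboxylase that makes malonyl-CoA, was at 15.1, 19.7 and 19.5 FPKM. In both genes the shUSP16 libraries nearly coincided and lay apart from the control, with gaps between them of 0.056 and 0.013 on the log2 scale. The log2 differences were 0.39 (SE 0.11, limma adjusted p = 0.292) for ACLY and 0.36 (SE 0.12, limma adjusted p = 0.313) for ACACA. With equal sums of reads the ratios were 1.21 and 1.24 for ACLY and 1.22 and 1.19 for ACACA, so neither gene was then at least 25% higher in both.

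FASN, the fatty acid synthase, was at 74.6, 108 and 83.4 FPKM. Its ratio was 1.45 (1.43 to 1.48) in shUSP16-1 and 1.12 (1.10 to 1.14) in shUSP16-2, and the gap between those libraries exceeded their mean difference from the control. With deposited values SCD, given above, was higher than the control in shUSP16-1 and lower in shUSP16-2, as SREBF1, TM7SF2 and MVK were. FADS1, a front-end desaturase of polyunsaturated fatty acids, was at 5.82, 6.16 and 6.88 FPKM. ELOVL6, which elongates palmitate, was at 6.39, 6.14 and 6.75 FPKM. FADS2, the desaturase paired with FADS1 on the opposite strand of chromosome 11, was listed at 0.546, 0.577 and 0.535 FPKM from 183 to 196 reads, and no difference was detectable at that depth. The sign of the small SCD and ELOVL6 differences, 0.049 and 0.0099 on the log2 scale, turned with equal sums of reads.

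**Figure D4:**
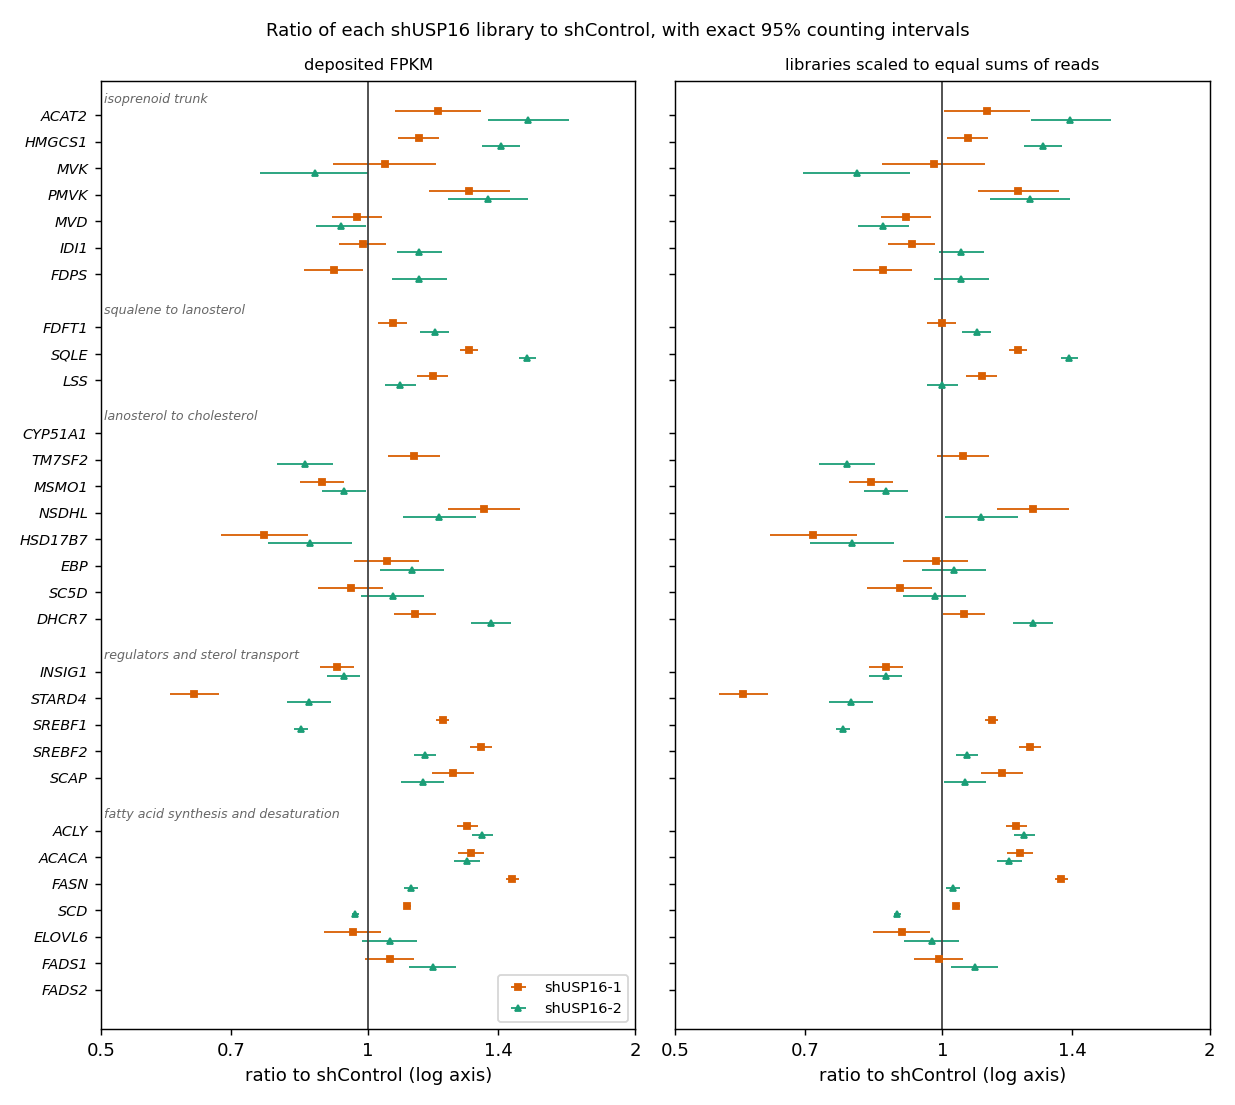
Ratio of shUSP16-1 (squares) and shUSP16-2 (triangles) to shControl for the 28 members tested, on a log axis, with exact binomial 95% intervals of counting error; the left panel uses deposited FPKM and the right panel equal sums of reads. SQLE, PMVK, ACLY and ACACA lie right of 1 and STARD4, HSD17B7, MSMO1 and INSIG1 left of 1 in both panels, while SREBF1 and SCD have a library on each side.

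Of the 30 members, 15 share exonic bases with another annotated gene, and 2 of them, CYP51A1 and ACAT2, share over 20%. With deposited values in shUSP16-1 the interval of the ratio lay above 1 for 16 of 28 members (36.9% of all genes tested) and below 1 for 5 (23.3%). In shUSP16-2 it lay above 1 for 17 (38.7%) and below 1 for 8 (25.2%). With equal sums of reads it lay above 1 for 14 (25%) and below for 9 (34.4%) in shUSP16-1, and above for 13 (26%) and below for 9 (38.2%) in shUSP16-2. These intervals narrow as reads increase, so the counts also follow the level of a gene. The mean log2 difference exceeded the gap between the shUSP16 libraries for 18 of 28 members, where it did for 59% of all genes.

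A further list of 48 genes around the same pathways, covering SREBP processing, acyl-CoA synthesis, elongation, sterol transport and export, was chosen apart from the 30. Of its 42 tested genes limma called 0, with 23 placed with shControl lowest (44.9% of all genes, 50.2% of protein-coding ones) and 11 with it highest (32.4% and 28.2%). limma voom called ELOVL1 alone with the authors' totals, where 2.51% of all genes were called, and ELOVL1, INSIG2 and FADS3 with sums of reads, where 4.02% were. ELOVL1, an elongase of very-long-chain fatty acids, was at 23.7 FPKM in shControl, 38.6 in shUSP16-1 and 34.7 in shUSP16-2. Its log2 difference of 0.61 exceeded that of each of the 28 members. The adjusted p was 0.280 in limma, and 0.0241 and 0.0349 in limma voom with the authors' totals and with sums of reads. MBTPS2, the protease that makes the second SREBP cleavage, was at 1.83, 2.49 and 2.76 FPKM, and UBXN8, a UBX domain protein of the endoplasmic reticulum, at 3.60, 4.88 and 4.67 FPKM. INSIG2, the paralog of INSIG1, was at 6.25, 3.82 and 4.54 FPKM, so both INSIG genes were lower in each shUSP16 library. FADS3, of the same desaturase family as FADS1 and FADS2, was at 7.82, 6.07 and 4.98 FPKM, and NPC2, a lysosomal cholesterol carrier, at 25.8, 19.9 and 21.2 FPKM.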

How the data were processed

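RNA-seq of 3 libraries labelled HGC-27 was analysed, grouped by their titles. The authors deposited FPKM per gene with gene length and coordinates, per the file headers. The sources used here name no aligner, counter, strand setting or RNA selection. Per the submitters' processing notes the builds were GRCm38 and mm10, of mouse, yet all 58735 gene IDs are in human GENCODE 29 on GRCh38, 58724 with equal coordinates and length. FPKM times length was a whole multiple of 1 step per library for 100% of values above 0 (tolerance 0.01 reads), which gave the recovered reads.

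limma 3.58.1 in R 4.3.3, with a variance trend, compared the groups on log2(FPKM + 1), which understates changes of low genes, over genes averaging 1 FPKM or more. The variance of each gene was estimated between shUSP16-1 and shUSP16-2 alone (1 residual degree of freedom). It was then moderated towards a trend over all genes tested (4.05 prior degrees of freedom) and taken to hold for the single control. Significance was an adjusted p of 0.05. An exact permutation test cannot go below 0.333 here. Exonic overlaps used GENCODE 29. Python 3.11.15, numpy 2.4.6, pandas 2.3.3 and scipy 1.17.1 were used.

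Named genes were all 30 members, USP16 and up to 3 further pathway genes per direction with the largest difference of the weaker library. The members and lists were chosen with earlier results of these data known. Alternatives are in the closing section.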

Additional observations from a re-analysis of the deposited data

How the results depend on the processing

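No member passed in limma under equal totals, median ratio scaling, a pseudocount of 0.1, no filter, a mean of at least 5 FPKM, protein-coding genes only, no trend, a robust trend or an adjusted p of 0.1; voom called 0 with the authors' totals and 1 with sums of reads. Over all genes the 0 calls became 13 with a mean of at least 5 FPKM, 48 with protein-coding genes only, and 348 and 557 with voom on the authors' totals and on sums of reads. Members with shControl highest numbered 8 with equal totals instead of 5. Members at least 25% higher in each library numbered 0 with equal totals, 2 with median ratio scaling and 0 at 1.5-fold instead of 4, and those at least 20% lower 2 with equal totals instead of 0. The median log2 difference of members, 0.12, was 0.027 with equal totals, 0.076 with median ratio scaling, 0.14 with a pseudocount of 0.1, 0.15 with a mean of at least 5 FPKM, and 0.14 and 0.032 with voom on the authors' totals and on sums of reads. The median of all genes moved by a similar amount under the other scalings, but not under the other filters. The members stood 0.082 above it as reported, 0.076 with equal totals, 0.079 with median ratio scaling and 0.090 with a pseudocount of 0.1. They stood 0.091 above it with either voom, whose totals moved all genes by 0.11. The gap was 0.120 with no filter, 0.057 with protein-coding genes only and 0.043 with a mean of at least 5 FPKM. Without replicate 1 or replicate 2 of shUSP16, which leaves values with no test, members above shControl numbered 19 in each case (56.0% to 56.5% of all genes), those below it 9 in each (43.5% to 44.0%), those at least 25% higher 7 in each (15.5% to 19.4%) and those at least 20% lower 0 to 2 (15.6% to 18.0%), and the median was 0.15 to 0.17. The sign of IDI1, FDPS, SC5D, SREBF1, SCD and ELOVL6 turned under some scalings; their differences are smaller than the shift of all genes with equal totals, -0.091. No paired analysis was possible because shControl has 1 library and no number in its labels. Precision is limited by 1 control library and, for FADS2, by at most 196 reads; CYP51A1 had at most 69, and how reads in its shared bases were counted is not stated.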
